A study of Mus musculus with 8 samples.

Results

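The genes described here are 10 components of 2 forms of lytic cell death, pyroptosis and necroptosis, in cultured mouse kidney tubular epithelial cells: Nlrp3, Pycard, Casp1, Casp4, Gsdmd, Gsdme, Casp8, Ripk1, Ripk3 and Mlkl. They were taken by gene symbol, without use of their values, and all 10 were found among the 14145 genes of the table. The tested cells came from mice lacking Aldh2, a mitochondrial aldehyde dehydrogenase, in tubular epithelium (KO, 4 libraries), and the others from control mice that the sample titles call wild type (WT, 4 libraries). Primary cells of both groups were grown in serum-containing medium, received no treatment and were profiled by RNA sequencing. The labels name neither the age of the mice nor the driver of the deletion, and they do not tie libraries to animals, so p-values reflect only how far these 8 libraries scatter, part of which could be technical. The genotype field of the KO samples runs through different ALDH numbers, and groups were therefore taken from the titles.

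Pyroptosis is executed by gasdermins, which form pores in the plasma membrane once a caspase has cut them. In the canonical route a sensor such as Nlrp3 assembles with the adaptor Pycard (also called ASC) and activates caspase-1, which cuts gasdermin D and matures interleukin-1 beta and interleukin-18, while mouse caspase-4 (also called caspase-11) responds to bacterial lipopolysaccharide in the cytosol. Necroptosis runs from death receptors through the kinases Ripk1 and Ripk3 to Mlkl, which permeabilises the membrane, and caspase-8 holds this route in check by cleaving the kinases. Both routes are regulated largely through protein cleavage, assembly and phosphorylation, which transcript levels do not show. In kidney injury they have been studied in tubular epithelium and in infiltrating leukocytes.

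None of the 10 genes differed between KO and WT beyond the spread of the libraries. By limma on log2(FPKM + 1), where FPKM counts fragments relative to gene length and sequencing depth, 0 of 10 genes had an adjusted p below 0.05, 0 of 10 had an unadjusted p below 0.05, and limma-voom on recovered reads also gave 0 of 10 at either level. Among all genes 0.0778% were called by limma, 19.2% had an unadjusted p below 0.05 and 0.0495% were called by limma-voom. The KO and WT libraries overlapped for all 10 genes, so 0 of 10 were separated, against 11.6% of all genes. The log2 differences, KO minus WT, were above 0 for 6 genes and below 0 for 4, with a median of 0.14 against -0.06 for all genes. Adjusted p-values by limma ran between 0.353 for Ripk3 and 0.805 for Gsdmd. The authors' deposited table lists 0 of the 10 genes under the same threshold, against 0.375% of all its genes.

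Library facts that bear on these values are few. Recovered depths were 17890000 to 18760000 reads or fragments per KO library and 17050000 to 17760000 per WT library. Aldh2 averaged 1.24 ± 0.31 FPKM in KO and 26.4 ± 3.24 FPKM in WT (SD, n = 4 each), with a log2 fold change of -3.61 and an adjusted p of 3.43e-05 by limma. KO 1 and KO 2 carried Xist and were female by this measure, whereas KO 3, KO 4 and the 4 WT libraries carried Y-linked transcripts. Tubular and epithelial transcripts were abundant in both groups, led by Krt8 at 267 to 3553 FPKM in KO and 469 to 1460 FPKM in WT, with Krt18 and Krt19 next, while Slc34a1, Slc5a2 and Cubn, defining genes of the proximal tubule, were not among the genes analysed here. Transcripts of macrophages were present in every library. Summed over 16 macrophage markers, all measured, they came to 624, 1861, 245 and 1184 FPKM in KO 1 to 4 and 1121, 109, 123 and 122 FPKM in WT 1 to 4, led by Lyz2, C1qa and C1qb, and of the 16 only Itgam was at 0 in a library (WT 4). Of the 8 neutrophil markers 0 were among the genes analysed, and of 12 lymphocyte markers only Trac was, at no more than 2.05 FPKM. The 7 fibroblast markers measured of 10 summed to 26.2 to 41.0 FPKM in KO and 41.4 to 464 FPKM in WT, highest in WT 1, and the 5 endothelial markers measured of 10 to 2.34 to 4.13 FPKM in KO and 6.08 to 8.68 FPKM in WT.

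Levels differed widely among the 10 genes. Averaged over the 8 libraries, Casp8 stood at 31.8 FPKM, Ripk1 at 6.28, Mlkl at 3.18 and Ripk3 at 2.65 FPKM, so the 4 genes of the necroptosis branch were the highest of the 10. Casp4 followed at 1.62, Gsdmd at 1.07, Casp1 at 0.91, Nlrp3 at 0.53, Gsdme at 0.51 and Pycard at 0.40 FPKM. The median gene of the table averaged 5.98 FPKM; Casp8 lay at percentile 87.7, Ripk1 at 51.2 and Pycard at 1.11 of all genes. Only the step between Casp8 and Ripk1 separated neighbouring genes without overlap of their ranges over libraries. Ripk1 exceeded Mlkl within every one of the 8 libraries although their ranges overlapped across libraries, and from Mlkl downward each neighbouring pair changed order in some libraries. The deposited FPKM correspond to 194 reads for Casp1, 218 for Pycard and 306 for Nlrp3 in all 8 libraries together, against 13098 for Casp8.

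**Figure D1:**
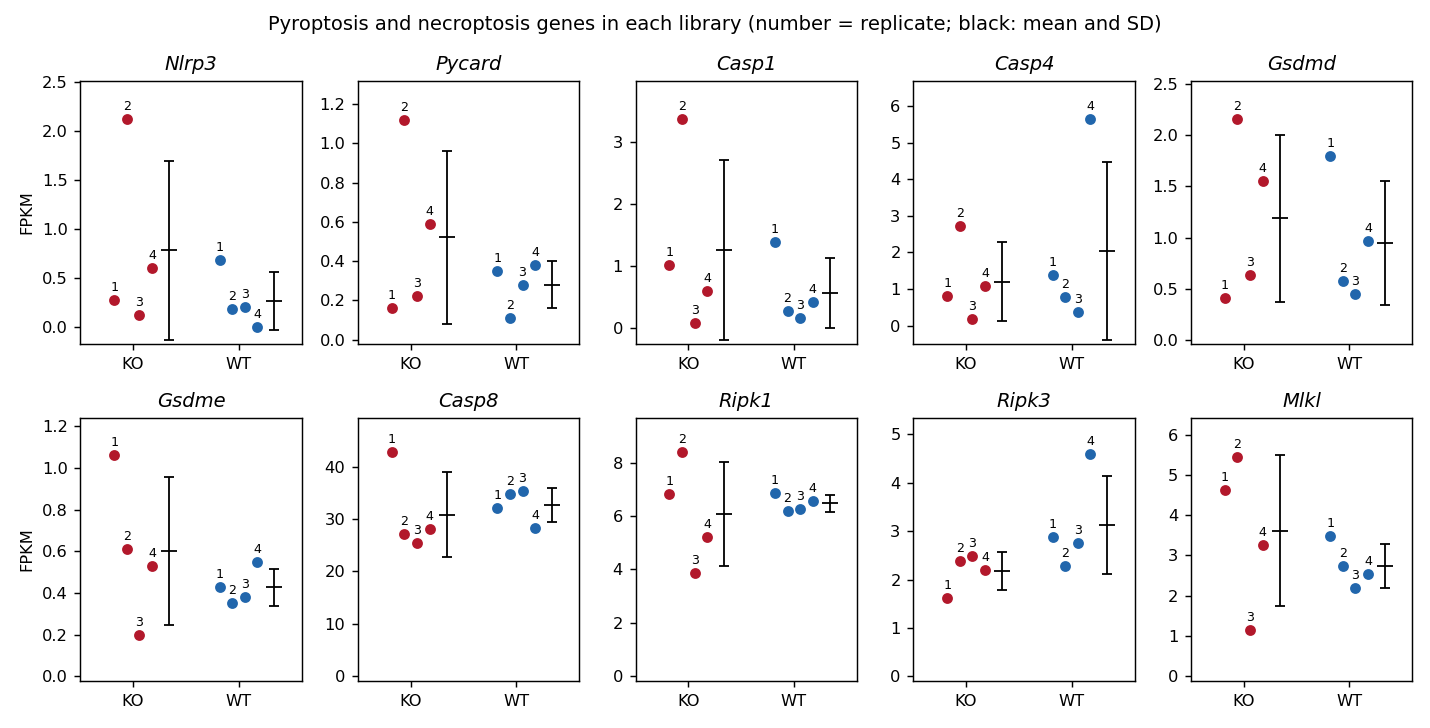
FPKM of each gene in the 4 KO (red, left) and 4 WT (blue, right) libraries; numbers are replicates, black marks the mean and SD, and each panel has its own linear axis. KO 2 is the highest library for 6 genes, and the groups overlap in every panel.

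Positions are those of GRCm38 (GENCODE M21). The sensor Nlrp3 (ENSMUSG00000032691, chromosome 11, 59541568 to 59566956) was at 0.28, 2.12, 0.13 and 0.61 FPKM in KO 1 to 4, against 0.69, 0.19, 0.21 and 0 FPKM in WT 1 to 4. KO 2 alone lay above the WT range, and KO 3 lay among the low WT libraries. The value of 0 in WT 4 stands for no read where 3 reads would have given 0.0426 FPKM, and the 2.12 FPKM of KO 2 stand for 154 reads. The log2 difference was 0.40 (SE 0.31, 95% interval -0.31 to 1.10, limma adjusted p = 0.483). On this scale changes of genes with such low values are understated, and with a pseudocount of 0.1 in place of 1 the difference was 1.08, and by limma-voom on recovered reads it was 1.98 (SE 1.32, limma-voom adjusted p = 0.402, within 0.329 to 0.833 over the alternatives).

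The adaptor Pycard (ENSMUSG00000030793, chromosome 7, 127989708 to 127993867), which links sensors to caspase-1, was at 0.16, 1.12, 0.22 and 0.59 FPKM in KO 1 to 4, against 0.35, 0.11, 0.28 and 0.38 FPKM in WT 1 to 4. KO 2 and KO 4 were the highest libraries, and KO 1 and KO 3 fell within the WT range. The log2 difference was 0.21 (SE 0.21, interval -0.26 to 0.69, limma adjusted p = 0.575). Of the exonic bases of Pycard 12.8% are shared with Gm45205, annotated on the opposite strand, and no source read here says whether counting used the strand.

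Casp1 (ENSMUSG00000025888), the protease of the inflammasome, was covered by 2 to 90 reads per library. It was at 1.02, 3.36, 0.07 and 0.59 FPKM in KO 1 to 4, against 1.39, 0.27, 0.15 and 0.42 FPKM in WT 1 to 4. The highest and the lowest library were both KO, KO 2 with 90 reads and KO 3 with 2 reads, a ratio of 47.2. By counting error alone (exact Poisson, 95%) KO 3 could lie between 0.0086 and 0.257 FPKM. The difference between groups was 0.40 (SE 0.41, interval -0.52 to 1.31, limma adjusted p = 0.588). This value rested on KO 2: without that library it was 0.01, and those of Nlrp3, Pycard and Mlkl were 0.09, 0.04 and 0.0029.

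Casp4 (ENSMUSG00000033538), the cytosolic receptor and protease for lipopolysaccharide, had another pattern over libraries than its neighbour Casp1. The genes lie in tandem on chromosome 9 of GRCm38, Casp1 at 5298517 to 5307265 and Casp4 at 5308828 to 5336783, with 1562 bases between them. Casp4 was at 0.81, 2.71, 0.17 and 1.08 FPKM in KO 1 to 4, against 1.37, 0.79, 0.36 and 5.64 FPKM in WT 1 to 4. WT 4 was the highest library for Casp4 with 363 reads, although it held only 11 reads of Casp1 and none of Nlrp3. The log2 difference was -0.31 (SE 0.50, interval -1.42 to 0.81, limma adjusted p = 0.736), and without WT 4 it turned to 0.16.

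The sequences around the transcription starts of Casp1, Casp4 and Nlrp3 are shown because these 3 genes parted in WT 4. Each window holds 250 bases before and 50 after the start, on the plus strand of GRCm38.p6 (RefSeq; 9 of the 10 genes matched, Gsdmd did not). Capitals mark matches to the NF-kB consensus, searched on both strands.
Casp1, chr9:5298267-5298566: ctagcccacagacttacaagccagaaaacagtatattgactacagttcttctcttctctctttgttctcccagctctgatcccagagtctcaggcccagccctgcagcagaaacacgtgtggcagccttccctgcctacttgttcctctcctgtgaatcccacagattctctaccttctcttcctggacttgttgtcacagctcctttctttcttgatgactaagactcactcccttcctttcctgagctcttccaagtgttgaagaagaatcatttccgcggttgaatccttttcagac
Casp4, chr9:5308599-5308898: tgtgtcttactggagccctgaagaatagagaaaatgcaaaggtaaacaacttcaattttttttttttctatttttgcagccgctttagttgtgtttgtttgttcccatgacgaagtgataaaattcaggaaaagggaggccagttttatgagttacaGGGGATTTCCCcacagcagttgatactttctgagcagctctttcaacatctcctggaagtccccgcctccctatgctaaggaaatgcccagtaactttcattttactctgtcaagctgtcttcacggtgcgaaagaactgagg
Nlrp3, chr11:59541319-59541618: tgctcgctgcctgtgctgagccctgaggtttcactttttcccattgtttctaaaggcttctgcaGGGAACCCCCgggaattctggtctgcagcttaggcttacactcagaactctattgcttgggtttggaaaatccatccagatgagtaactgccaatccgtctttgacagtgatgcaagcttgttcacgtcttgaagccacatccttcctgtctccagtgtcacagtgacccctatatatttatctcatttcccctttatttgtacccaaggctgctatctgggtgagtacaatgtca
The NF-kB consensus matched in the windows of Casp4 and Nlrp3 shown here and in 4.51% of 32851 promoter windows. The 9 genes had 12 windows in all, and another window of Nlrp3, chr11:59542436-59542735, held no match. In Casp4 a pair of overlapping matches forms the capital run. The interferon-response motif, spelled GAAA, NN, GAAA, was found in a window of Ripk1 and of no other of the 9 genes searched (3.44% of all windows), and the PU.1 motif AGGAAGT in that of Pycard alone among these 9 (9.35% of all windows). Matches describe these letters and say nothing of binding, and the genes with a match did not share a pattern over libraries: Casp4 was highest in WT 4, where Nlrp3 had no read.

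The pore-forming Gsdmd (ENSMUSG00000022575, chromosome 15, 75862327 to 75867408) was at 0.41, 2.16, 0.63 and 1.55 FPKM in KO 1 to 4, against 1.80, 0.57, 0.45 and 0.97 FPKM in WT 1 to 4. High and low libraries occurred in both groups, with KO 2, WT 1 and KO 4 on top. The log2 difference was 0.14 (SE 0.31, interval -0.54 to 0.83, limma adjusted p = 0.805), and it was -0.06 without KO 2, where 8.05% of all genes but none of the 10 were called. Gsdme (ENSMUSG00000029821, chromosome 6, 50188888 to 50263862), the gasdermin cut by caspase-3, was at 1.06, 0.61, 0.20 and 0.53 FPKM in KO 1 to 4, against 0.43, 0.35, 0.38 and 0.55 FPKM in WT 1 to 4. The highest and lowest libraries of Gsdme were again both KO, and its difference was 0.14 (SE 0.19, interval -0.28 to 0.55, limma adjusted p = 0.679). Gsdme has long annotated exons (12742 bases in all), and with the trend on gene length removed from each library its difference was 0.58, which did not pass either.

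Casp8 (ENSMUSG00000026029, chromosome 1, 58795374 to 58847503), which initiates death-receptor apoptosis and restrains necroptosis, was the most abundant gene of the set. It was at 42.82, 27.07, 25.36 and 28.11 FPKM in KO 1 to 4, against 32.18, 34.82, 35.37 and 28.35 FPKM in WT 1 to 4. KO 1 lay above every WT library and KO 2 to 4 lay below every WT library. KO 4 and WT 4 were close, and their intervals of counting error (exact Poisson, 95%) overlapped, at 26.69 to 29.58 and 26.89 to 29.86 FPKM. The group means, 30.8 ± 8.07 FPKM in KO and 32.7 ± 3.20 FPKM in WT (SD, n = 4 each), differed by -0.11 on the log2 scale (SE 0.19, interval -0.54 to 0.33, limma adjusted p = 0.767).

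Ripk1 (ENSMUSG00000021408, chromosome 13, 34002363 to 34037147), the kinase and scaffold beneath the tumour necrosis factor receptor, was at 6.83, 8.38, 3.87 and 5.23 FPKM in KO 1 to 4, against 6.87, 6.20, 6.26 and 6.56 FPKM in WT 1 to 4. The WT libraries agreed closely (SD 0.309 FPKM) and the KO libraries scattered to either side of them (SD 1.95 FPKM). The log2 difference was -0.12 (SE 0.22, interval -0.60 to 0.36, limma adjusted p = 0.765). Of the exonic bases of Ripk1 6.12% are shared with Gm17084 on the same strand and 2.89% with Serpinb6a on the opposite strand, so its reads could be divided in part. The higher KO values were those of the libraries with Xist. Against the same WT libraries, the male KO 3 and KO 4 alone gave a difference of -0.44 (limma adjusted p = 0.0367; 0.0367 to 0.928 over all alternatives), while the female KO 1 and KO 2 alone gave 0.20 (limma adjusted p = 0.503, with 0.099% of all genes called). A sex covariate must give the same difference as the male libraries, -0.44, because both female libraries were KO, so it is no separate check. Its limma adjusted p was 0.0631, with 34.2% of all genes called. Among the male libraries 44.4% of all genes were called, and 61.3% had groups that did not overlap, Casp8 and Ripk1 among them. With KO 1 and KO 2 in place of KO 3 and KO 4, Gsdme and Mlkl were the separated members, both higher in KO, against 25.3% of all genes. No WT library was female, so sex and genotype cannot be told apart in that second comparison. Among the male libraries, Y-linked transcripts summed to 5.79 FPKM in KO 3 and 12.2 FPKM in KO 4, against 19.96 to 34.1 FPKM in WT. The cause of this gap was not tested. Over all libraries, with the trend on gene length removed, the difference of Ripk1 was 0.17 (limma adjusted p = 0.563).

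Ripk3 (ENSMUSG00000022221, chromosome 14, 55784995 to 55788865), the kinase that phosphorylates Mlkl, was at 1.61, 2.39, 2.49 and 2.19 FPKM in KO 1 to 4, against 2.88, 2.28, 2.75 and 4.60 FPKM in WT 1 to 4. WT 2 alone lay within the KO range. The means were 2.17 ± 0.393 FPKM in KO and 3.13 ± 1.02 FPKM in WT (SD, n = 4 each), and the log2 difference of -0.36 (SE 0.21, interval -0.83 to 0.11, limma adjusted p = 0.353) was the closest to the threshold among the 10 genes. It kept its sign under all 19 alternatives tried for Ripk3, between -0.50 and -0.20, and passed in none. Mlkl (ENSMUSG00000012519, chromosome 8, 111311797 to 111338177), the executioner of necroptosis, was at 4.62, 5.44, 1.16 and 3.25 FPKM in KO 1 to 4, against 3.49, 2.73, 2.20 and 2.55 FPKM in WT 1 to 4. KO 1 and KO 2 were above all WT libraries, KO 3 was below them and KO 4 within their range, and the difference was 0.20 (SE 0.32, interval -0.52 to 0.92, limma adjusted p = 0.735).

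**Figure D2:**
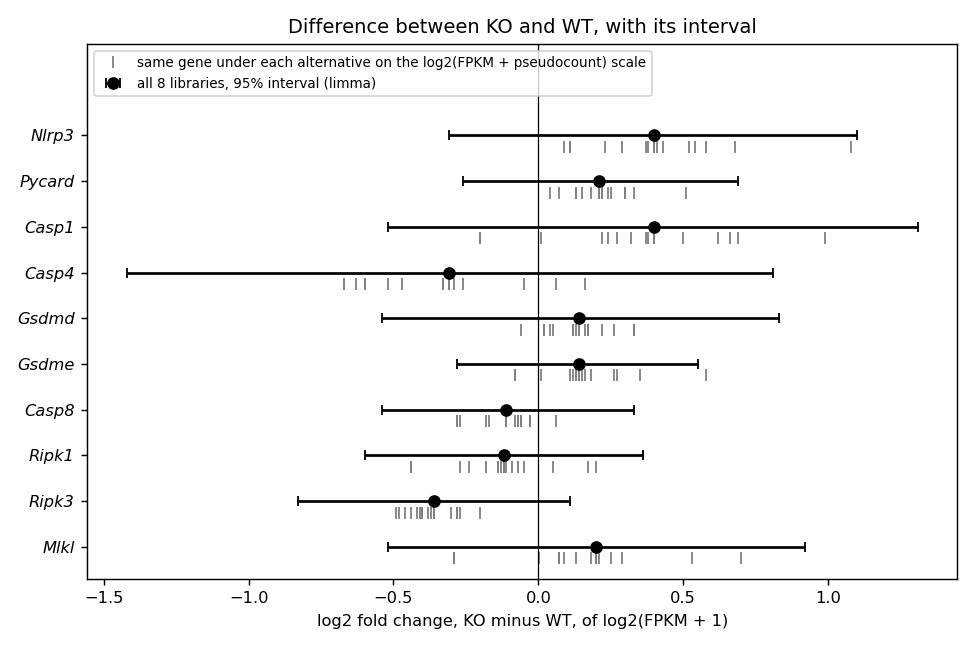
Log2 difference, KO minus WT, of log2(FPKM + 1) for each gene, with its 95% interval (points and bars) and the value under each alternative except limma-voom (grey ticks). Every interval spans 0, and Ripk3, Nlrp3 and Pycard keep all ticks on a single side of it.

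Spread over libraries was wider in KO than in WT for 8 of these 10 genes, close to the 83.1% of all genes for which this held. The SD of log2(FPKM + 1) was larger among the KO libraries for Nlrp3 (0.652 in KO and 0.315 in WT), Casp1 (0.853 and 0.469), Pycard (0.400 and 0.142), Ripk1 (0.410 and 0.0592) and Mlkl (0.702 and 0.205), and smaller for Casp4 (0.687 in KO and 0.998 in WT) and Ripk3 (0.188 and 0.331). No test of these spreads was run. KO 2 was the highest of all 8 libraries for 6 of the 10 genes, against 13.4% of all genes. KO 3 was the lowest for 6, and the share over all genes was not taken for that count.

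Nlrp3, Pycard, Casp1 and Gsdmd were highest in a library rich in macrophage transcripts. KO 2, the library with the most macrophage marker RNA, was the highest for all 4 of these genes and for 13 of the 16 markers. It was also the highest for Ripk1 and Mlkl, and for 3 of the 15 tubular markers, Lrp2, Aqp1 and Pax2, named here after their values were seen. Within WT, WT 1 held the most macrophage marker RNA and was the highest for Nlrp3, Casp1 and Gsdmd, with 0.69, 1.39 and 1.80 FPKM against 0 to 0.21, 0.15 to 0.42 and 0.45 to 0.97 FPKM in WT 2 to 4. Pycard went another way, at 0.35 FPKM in WT 1 and 0.38 FPKM in WT 4. KO 4, second in marker RNA, stood below WT 1 for Casp1 (0.59 against 1.39 FPKM), Nlrp3 (0.61 against 0.69) and Gsdmd (1.55 against 1.80). For Pycard KO 4 was above WT 1, at 0.59 against 0.35 FPKM. KO 1, with 624 FPKM of marker RNA, was the lowest of all libraries for Gsdmd, at 0.41 FPKM. Its Pycard, at 0.16 FPKM, was below WT 1, WT 3 and WT 4. Nlrp3 and Casp1 in KO 1, at 0.28 and 1.02 FPKM, were above WT 2 to 4. Whether macrophages carry the transcripts of these 4 genes in the cultures was not tested, nor was it for Ripk1 and Mlkl. Without KO 2 and WT 1, a comparison added after the values were seen, the differences were 0.23 for Nlrp3, 0.07 for Pycard, 0.24 for Casp1 and 0.13 for Gsdmd, and again 0 of the 10 genes passed, against 0.00707% of all genes. In WT 4, where Casp4 was highest, Cd14 supplied 71.65 of the 122 FPKM of marker RNA and was the only one of the 16 markers highest there, whereas Lyz2 (9.38 FPKM), C1qa (2.94) and C1qb (2.28) were at their lowest. In a bulk culture, fewer cells of a type and less RNA per cell cannot be told apart.

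**Figure D3:**
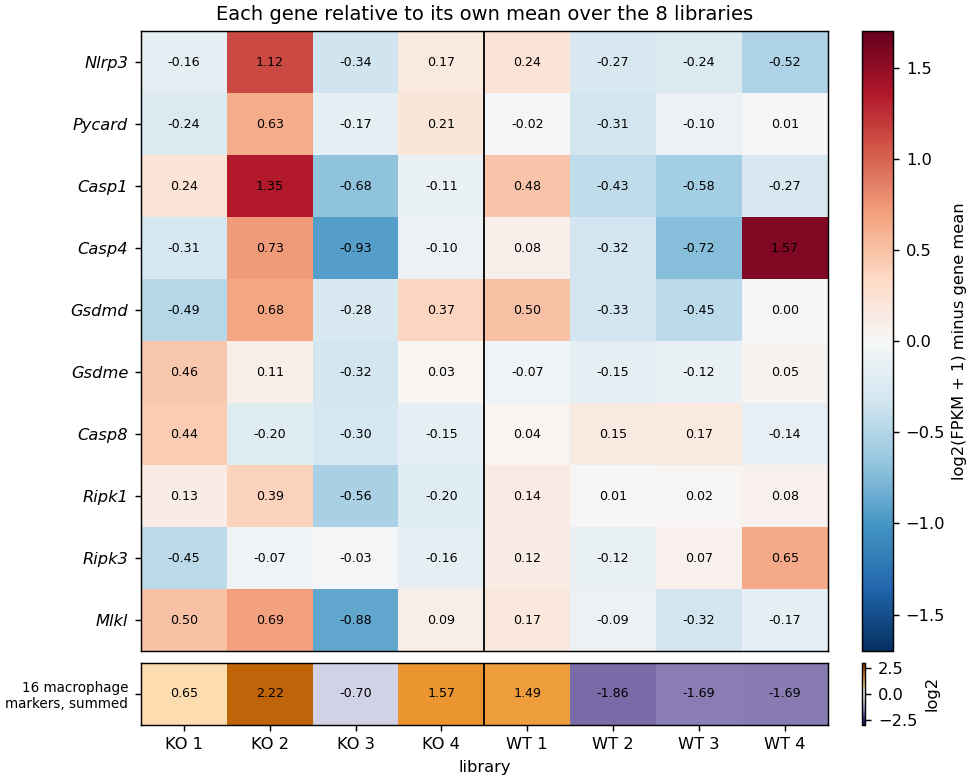
Log2(FPKM + 1) of each gene minus its mean over the 8 libraries (columns, KO left of WT), with the summed macrophage markers, likewise centred, on a colour scale of their own beneath. KO 2 stands out for Nlrp3 at 1.12 and Casp1 at 1.35, and WT 4 for Casp4 at 1.57.

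Genes with the most similar profiles were listed by the root mean square difference of centred log2(FPKM + 1) over the 8 libraries, among genes averaging at least 1 FPKM. Nlrp3 was nearest to Dok3 (0.0998), Prex1 (0.129) and Syk (0.153), Casp1 to Trim30a (0.165), Igsf6 (0.176) and Adap2 (0.181), and Gsdmd to Dennd4b (0.132), Irf8 (0.133) and Csf2ra (0.149). Casp4 was nearest to P3h2 (0.168), Rgl1 (0.179) and Tbc1d4 (0.192), and Pycard to Evi5l (0.0796), Sh2b3 (0.0927) and Arrb1 (0.094). Of the other genes, Casp8 had Dnaja2 (0.0592), Mtap and Txnl1, Ripk1 had Mettl14 (0.0572), Taf5 and the unnamed model 9130023H24Rik, Gsdme had Ctps (0.0523), Mgme1 and Rbm43, Mlkl had Plcl1 (0.109), Cd1d1 and Fbxo9, and Ripk3 had Tnfrsf22 (0.116), Osbp and Baiap2l1. Among the 10 genes themselves the closest pairs were Casp8 with Gsdme (0.209), Gsdme with Ripk1 (0.218) and Gsdmd with Pycard (0.249). These values are a description over 8 libraries and carry no test.

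Other inflammasome genes gave no call. Of 39 listed sensors, regulators and outputs 22 were measured, 11 with higher and 11 with lower KO values (median log2 difference -0.01); 0 passed by limma, 2 had an unadjusted p below 0.05, and 0 passed by limma-voom. Groups did not overlap for 3 of the 22, against 11.6% of all genes in either direction. All 3 were lower in KO, the direction of 6.86% of all genes. Il1rn, the secreted antagonist of the interleukin-1 receptor, was at 1.01 to 1.81 FPKM in KO and 1.83 to 5.42 FPKM in WT (log2 difference -0.66, limma adjusted p = 0.232). Dpp8, a dipeptidyl peptidase that restrains the Nlrp1 inflammasome, was at 4.56 to 10.21 FPKM in KO and 10.43 to 11.29 FPKM in WT. Card6, a protein with a caspase recruitment domain, was at 0.64 to 1.01 FPKM in KO and 1.12 to 1.37 FPKM in WT. Among substrates of caspase-1, named here after their values were seen, Il18 was at 9.11, 4.39, 0.93 and 3.74 FPKM in KO 1 to 4 and 2.64, 1.14, 1.69 and 1.45 FPKM in WT 1 to 4 (log2 difference 0.82, limma adjusted p = 0.319), and Il1b was at 0.26, 1.96, 0 and 0.29 FPKM in KO 1 to 4 and 1.43, 0.52, 0.38 and 0.03 FPKM in WT 1 to 4. Il18 was above every WT library in KO 1, KO 2 and KO 4 and below them in KO 3.

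Regulators of death-receptor signalling and necroptosis were measured for 38 of 41 listed genes, 15 with higher and 23 with lower KO values (median -0.09). Of these 0 passed by limma or by limma-voom, 7 had an unadjusted p below 0.05 by limma, and groups did not overlap for 4, shares close to the 19.2% and 11.6% of all genes. Tlr3, the endosomal receptor for double-stranded RNA that can signal to Ripk3 through Ticam1, was at 5.78, 3.48, 3.42 and 2.86 FPKM in KO 1 to 4, against 9.42, 10.86, 10.08 and 7.23 FPKM in WT 1 to 4. All KO libraries lay below all WT libraries, and the log2 difference was -1.11 (SE 0.22, interval -1.60 to -0.62, limma adjusted p = 0.0996). The adjusted p of Tlr3 ran between 0.0034 and 0.368 over the alternatives and was below 0.05 in 3 of 19. Among these were the male libraries alone and the sex covariate, which share the same difference of -1.32 by design. Birc3, an inhibitor of apoptosis that ubiquitinates Ripk1, was at 2.66 to 4.58 FPKM in KO and 5.50 to 6.23 FPKM in WT (log2 difference -0.57, limma adjusted p = 0.177). Otulin, the deubiquitinase of linear chains, was at 18.45 to 26.43 FPKM in KO and 12.33 to 16.59 FPKM in WT (log2 difference 0.53, limma adjusted p = 0.181).

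Mitochondrial apoptosis genes and the ESCRT machinery, which removes damaged membrane after gasdermin or Mlkl pores form, gave no call either. All 21 apoptosis genes were measured, 10 higher and 11 lower in KO (median -0.01), with 0 passing by limma or limma-voom, 3 at an unadjusted p below 0.05 by limma and 2 separated, no larger shares than the 19.2% and 11.6% of all genes. Bcl2l11, the death activator Bim, was at 2.47 to 6.91 FPKM in KO and 7.75 to 8.78 FPKM in WT. Its log2 difference was -0.83 (limma adjusted p = 0.164). Bad, which also promotes death, was at 11.69 to 22.15 FPKM in KO and 9.53 to 11.56 FPKM in WT. The survival gene Bcl2 was at 1.98 to 5.39 FPKM in KO and 4.64 to 6.05 FPKM in WT. All 16 ESCRT genes were measured, 10 higher and 6 lower (median 0.07), with 0 passing by limma or limma-voom. Of these, 3 had an unadjusted p below 0.05 by limma, against 19.2% of all genes. Groups did not overlap for 4, against 11.6% of all genes in either direction. All 4 were higher in KO, the direction of 4.76% of all genes. For Chmp4b, among these 4, the groups nearly touched, at 83.96 FPKM in KO 2 and 83.95 FPKM in WT 3. Chmp7 was at 11.52 to 16.04 FPKM in KO and 9.89 to 10.96 FPKM in WT (log2 difference 0.45, limma adjusted p = 0.197), Chmp2a at 64.79 to 97.27 FPKM in KO and 51.23 to 64.45 FPKM in WT, and Chmp4c the other way at 3.91 to 7.51 FPKM in KO and 6.96 to 8.37 FPKM in WT. Among the male libraries, where 44.4% of all genes were called by limma, calls numbered 5 of 22 inflammasome, 22 of 38 death-receptor, 11 of 21 apoptosis and 11 of 16 ESCRT genes.

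**Figure D4:**
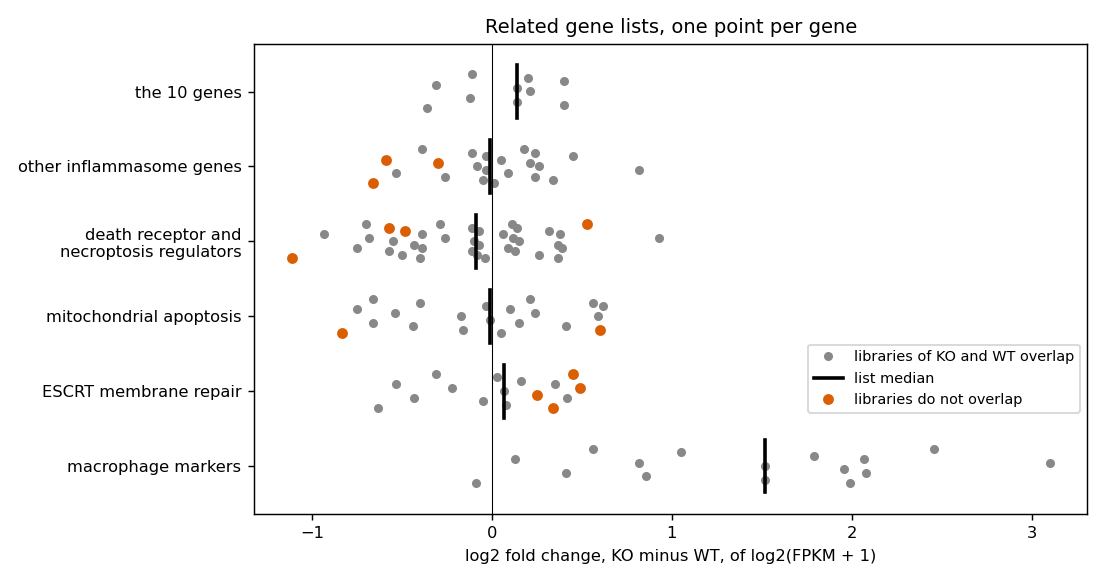
Log2 difference, KO minus WT, of every measured gene of the 10, of 4 related lists and of the macrophage markers; bars are list medians and orange marks genes whose KO and WT libraries did not overlap. The medians of the 10 genes and of the 4 lists lie between -0.09 and 0.14, while that of the macrophage markers is 1.52. Of the 16 macrophage markers 0 passed by limma (lowest limma adjusted p = 0.195), against 0.0778% of all genes. Groups did not overlap for 0 of the 16, against 11.6% of all genes.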

How the data were processed

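RNA of 4 KO and 4 WT primary cultures was sequenced. FastQC, DESeq2, GRCm38 and STAR 2.4.1d are credited in the submitters' processing notes; for the counter, annotation and row filter no source read here gives a name. The authors deposited FPKM for 14145 genes under a name that calls them counts, with their own log2 fold change, p-value and adjusted p-value. The values carry decimals, so limma replaced a count test. Exon-union lengths from GENCODE M21 cover 14134 genes; multiplied by them, 95.0% to 95.5% of low values lay within 0.05 read of a whole number, which gave reads and depth. Floors of 3 reads and intervals cover counting error only. Columns of values without a sample numbered 0.

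log2(FPKM + 1) was fitted with limma 3.58.1 (R 4.3.3), variance trend, genotype as the only term, all genes and libraries, and Benjamini-Hochberg adjustment at 0.05; the script was tested on simulated data. Alternatives were a pseudocount of 0.1, no trend, median-ratio scaling, a filter keeping genes at 1 FPKM or more in 4 or more libraries, a replicate block, a sex covariate, male libraries alone, leaving out KO 3 and KO 4, limma-voom, removal of the length trend (lowess, span 0.3) and leaving out each library; leaving out KO 2 with WT 1 was added after seeing the data. Named genes were the 10 members, Aldh2, the 3 of lowest p in each related list, the 3 most abundant cell type markers and the 3 nearest profiles. Members, lists and rules were chosen with earlier results of these data known. Python 3.11.15, pandas 2.3.3, numpy 2.4.6 and matplotlib 3.10.9 were used.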

Additional observations from a re-analysis of the deposited data

Results flagged for a closer look

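Within each group of 4 libraries, 25 genes were examined for a library whose gap to its nearest neighbour exceeded the 95% critical value of Dixon's ratio for 4 samples, which gave 50 groups; chance marks about 1 in 20 groups. Casp8 in KO 1, at 42.82 FPKM, stood apart from the next KO library at 28.11 FPKM. Il1b in KO 2, at 1.96 FPKM, stood apart from the next KO library at 0.29 FPKM, in the library with the most macrophage marker RNA. Chmp4c in WT 1, at 6.96 FPKM, stood below the next WT library at 8.17 FPKM.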

How the results depend on the processing

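Of the 10 genes, 0 passed under every alternative other than the male libraries alone, where Ripk1 made 1, and 0 under each left-out library (0 to 0). Separated members numbered 0 in all libraries (11.6% of all genes), 2 among male libraries (61.3%) and 2 without KO 3 and KO 4 (25.3%). With a library left out they numbered 0 to 1, against 12.4% to 27.6% of all genes. Over 185 values of single members under an alternative, 13 changed sign. A sex covariate and the male libraries alone give the same differences by design. Gsdme at -0.08, Casp1 at -0.20 and Mlkl at -0.29 are therefore counted under each. Others were Casp4 0.06, Casp8 0.06 and Ripk1 0.20 without KO 3 and KO 4, and Ripk1 0.17 with the length trend removed. Leaving out single libraries gave -0.06 to 0.33 for Gsdmd, -0.27 to 0.05 for Ripk1 and -0.60 to 0.16 for Casp4. Over all genes 11 passed, against 3 with a pseudocount of 0.1, 1 with the replicate block, 4838 with a sex covariate, 6275 among male libraries, 7 by limma-voom, 1 without KO 2 and WT 1, and 1 to 1139 with a library left out, the most without KO 2. Same-numbered libraries deviated together with correlations of 0.04, -0.20, 0.56 and -0.06, and 1 of 4 KO libraries correlated best with its own number. With only 4 numbers, this check cannot tell whether libraries were paired. The filter left 5 of the 10 genes. The cause of these changes was not tested. Nlrp3, Pycard and Casp1 rest on 0 to 154 reads per library, and intervals reach 0.415 (log2) to either side at the narrowest and 1.11 at the widest.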
